A study of Mus musculus with 2 samples.

Results

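The smooth muscle contractile genes described here are Acta2, Tagln, Myh11, Cnn1, Des, Myl9, Tpm1, Tpm2 and Cald1. They are 9 of the 27998 genes in the tables, they were chosen by symbol, and each was found in the tables of both libraries and had at least 1 UMI (a tag that marks 1 captured RNA molecule) in the cells kept. The cells were ventricular non-myocytes from hearts of wild type C57BL/6 mice aged 10 to 12 weeks, profiled by droplet single-cell RNA sequencing of transcript 3′ ends in 2 libraries with no treatment or other group. Hearts were perfused, the atria taken off, the tissue dissociated and passed through a 100 µm filter, myocytes spun out at 50 g, red cells lysed and live cells sorted by exclusion of a dead-cell dye. The labels number the libraries 1 and 2 and do not say whether each came from its own animal. They are called mouse 1 and mouse 2 below for short. The p-values rest only on how differences between groups of cells vary over these 2 libraries, a spread mostly borrowed from all genes. They do not measure spread among further animals.

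Vascular smooth muscle cells shorten when myosin pulls on actin filaments. Acta2 encodes smooth muscle alpha-actin, Myh11 the smooth muscle myosin heavy chain and Myl9 a regulatory myosin light chain, whose phosphorylation by myosin light chain kinase starts contraction. The tropomyosins Tpm1 and Tpm2 run along the actin filament, caldesmon (Cald1) and calponin (Cnn1) bind actin and restrain the motor, transgelin (Tagln) is an actin-binding protein used as an early smooth muscle marker, and desmin (Des) is the intermediate filament of muscle. Serum response factor (SRF) with its cofactor myocardin drives many of these genes through a promoter element called the CArG box. Pericytes, the mural cells of capillaries, are known to carry less of this machinery than the smooth muscle cells of arteries, and Tpm1, Cald1 and Des are also used outside smooth muscle.

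Promoter sequences were read from RefSeq on GRCm38.p6 to show which of these genes carry the element near the start site, and windows for 7 of the 9 genes were matched, 8 windows in all because Cald1 has a pair of starts. Tagln and Myh11 had no window and were not searched. Each window runs from 250 bases before the start to 50 after it. An exact CArG box was found in 1 of the 8 windows, that of Myl9, against 1.63% of all 32851 RefSeq windows of that length. A box with at most 1 base off was found in 4 of the 8 windows, those of Acta2, Cald1, Myl9 and Tpm1, against 21.1% of all windows. The box reads the same on both strands, so 1 search covers both. The stretch of 206 bases before the first annotated exon of Myl9 (chr2:156775214-156775419, plus strand) is printed because it holds the exact box and, nearer the start, a second box with 1 base off, both in capitals.
Myl9: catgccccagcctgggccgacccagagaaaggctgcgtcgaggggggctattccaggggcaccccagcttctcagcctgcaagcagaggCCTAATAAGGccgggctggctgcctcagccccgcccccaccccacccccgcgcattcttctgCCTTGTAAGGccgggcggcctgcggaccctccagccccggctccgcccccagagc
The boxes of the other genes, in capitals with 10 bases on either side, are each 1 base off the element. They start 84 and 34 bases before the RefSeq start of Acta2 (chr19:34255438-34255467 and chr19:34255388-34255417, minus strand), 221 and 80 before that of Tpm1 (chr9:67049415-67049444 and chr9:67049274-67049303, minus strand) and 203 before the first start of Cald1 (chr6:34598291-34598320, plus strand). Both Acta2 boxes and the Tpm1 box at 80 lie inside annotated exons of these genes in GENCODE M21. The Tpm1 box at 221 and the Cald1 box do not.
Acta2, 84 bases before: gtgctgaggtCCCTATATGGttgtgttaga
Acta2, 34 bases before: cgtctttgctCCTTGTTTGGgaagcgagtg
Tpm1, 221 bases before: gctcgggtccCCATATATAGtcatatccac
Tpm1, 80 bases before: acaagcttttCCAAAAAAGTattggctgtc
Cald1, 203 bases before: acggtttcaaGCTTTTTAGGacttggtttt
These matches describe letters in a window, and binding was not measured here.

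Cells were placed in 4 classes by gates on genes outside the list. Mural cells held at least 4 UMIs of Rgs5, Kcnj8 and Vtn, genes best known from pericytes, fibroblasts at least 5 of Dcn, endothelial cells at least 2 of Pecam1, Cdh5 and Egfl7, and macrophages at least 15 of C1qa, C1qb and C1qc. Of 12295 cells kept, 63 and 42 (mouse 1 and mouse 2) were mural, 1860 and 1303 fibroblasts, 929 and 1269 endothelial and 2997 and 2361 macrophages. Another 318 cells passed several of these gates and 1153 passed none, and both sets stayed out of the classes. Median depth was 1295 and 1294 UMIs per mural cell, 1463 and 1410 in endothelium, 2752 and 2471 in fibroblasts and 2845 and 2616 in macrophages, and 65 barcodes occurred in both libraries. The 7 pericyte markers not used by the gate summed to 7836 and 7647 CPM (a gene's UMIs per 1e6 UMIs of the summed cells) in mural cells and to 324 CPM or less in each other class. The 10 markers of smooth muscle outside the 9 genes summed to 986 and 1128 CPM in mural cells, with Actg2 at 0 in all 4 classes. Their sums were 281 and 254 CPM in endothelium, 106 and 70.2 in macrophages and 71.4 and 66.6 in fibroblasts. The 7 endothelial markers not used by a gate summed to 5487 and 5731 CPM in the mural sums, against 30422 and 30777 in endothelium and 445 or less in fibroblasts and macrophages. Most of the mural UMIs in this sum were of Fabp4 alone, and the part of these markers in the mural values was not tested.

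Acta2 (chromosome 19, 34241090 to 34255590, minus strand; positions are GRCm38, GENCODE M21) stood at 344 and 161 CPM in the mural sums of mouse 1 and mouse 2, 252 ± 129 (SD, n = 2 here and below). It stood at 6.63 and 6.36 CPM in fibroblasts, 2.52 and 1.49 in endothelium and 2.38 and 0.152 in macrophages. Both mural values lay above every value of the other classes, and endothelium and macrophages overlapped. The mural values rest on 31 and 9 UMIs, held by 7 of 63 and 4 of 42 cells (11.1% and 9.52%). In macrophages, which should lack the gene, 0.734% and 0.0424% of cells had a UMI at about 2 times the depth per cell.

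Tagln (chromosome 9, 45929619 to 45936058, minus strand) followed the same order. It measured 222 and 197 CPM in mural cells (209 ± 17.5), 5.11 and 4.54 in fibroblasts, 2.52 and 3.47 in endothelium and 0.433 and 0.760 in macrophages, and no neighbouring classes in this order overlapped. Tagln lies opposite part of Pcsk7 and Gm48529 on the other strand, and whether the counting used strand is not given in the sources used here. Myh11 (chromosome 16, 14194535 to 14291372, minus strand) was found as 5 UMIs in the mural cells of each mouse, 55.4 and 89.5 CPM. In the other classes it was found as 1 UMI in fibroblasts, 1 in endothelium and none in macrophages. The ratio of mural to fibroblast CPM was therefore 588 with a counting interval of 83.6 to 25504, that to endothelium 247 (35.1 to 10709), and Myh11 was at least 361-fold higher than in macrophages, taking 3 UMIs over the class as the limit of a count of 0. Cnn1 (chromosome 9, 22099216 to 22109630, plus strand) had no UMI in any class. In mural cells that allows up to 33.3 and 53.7 CPM, so lower levels were not detectable at this depth.

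Myl9 (chromosome 2, 156775420 to 156781658, plus strand) was at 454 and 573 CPM in mural cells (514 ± 83.9), held by 33.3% and 45.2% of them. It was at 4.16 and 11.8 CPM in fibroblasts and 1.89 and 4.46 in endothelium, 2 classes whose values overlapped, and it had no UMI in 5358 macrophages, which allows 0.325 and 0.456 CPM. Tpm2 (chromosome 4, 43514711 to 43523765, minus strand) was at 532 and 555 CPM in mural cells (544 ± 16.4), 23.7 and 37.9 in fibroblasts, 2.81 and 3.80 in macrophages and 5.05 and 0.991 in endothelium. Mural cells and fibroblasts stood apart from each other and from the remaining pair of classes, which overlapped. Des (chromosome 1, 75360329 to 75368579, plus strand, opposite part of Gm15179) was at 255 and 197 CPM in mural cells (226 ± 41.0). It was at 22.5 and 14.2 CPM in fibroblasts, 30.3 and 6.94 in endothelium and 17.4 and 6.08 in macrophages, with each of these values higher in mouse 1 and the 3 classes overlapping.

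Cald1 and Tpm1 were found in many cells beyond the mural class. Cald1 (chromosome 6, 34598500 to 34775473, plus strand, opposite parts of Npn2, Gm13861 and Gm14547) was at 1596 and 1863 CPM in mural cells (1729 ± 188), 604 and 487 in fibroblasts, 320 and 361 in endothelium and 7.79 and 5.32 in macrophages. All 4 classes stood apart in that order. Tpm1 (chromosome 9, 67022590 to 67049406, minus strand) was at 621 and 358 CPM in mural cells (489 ± 186), 420 and 279 in endothelium, 203 and 161 in fibroblasts and 211 and 97.7 in macrophages. Mural and endothelial values overlapped, as did those of fibroblasts and macrophages. The annotation lists 12 different ends for coding transcripts of Tpm1 and 8 for Cald1, and 3′ counts per gene do not tell their muscle and non-muscle forms apart.

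**Figure D1:**
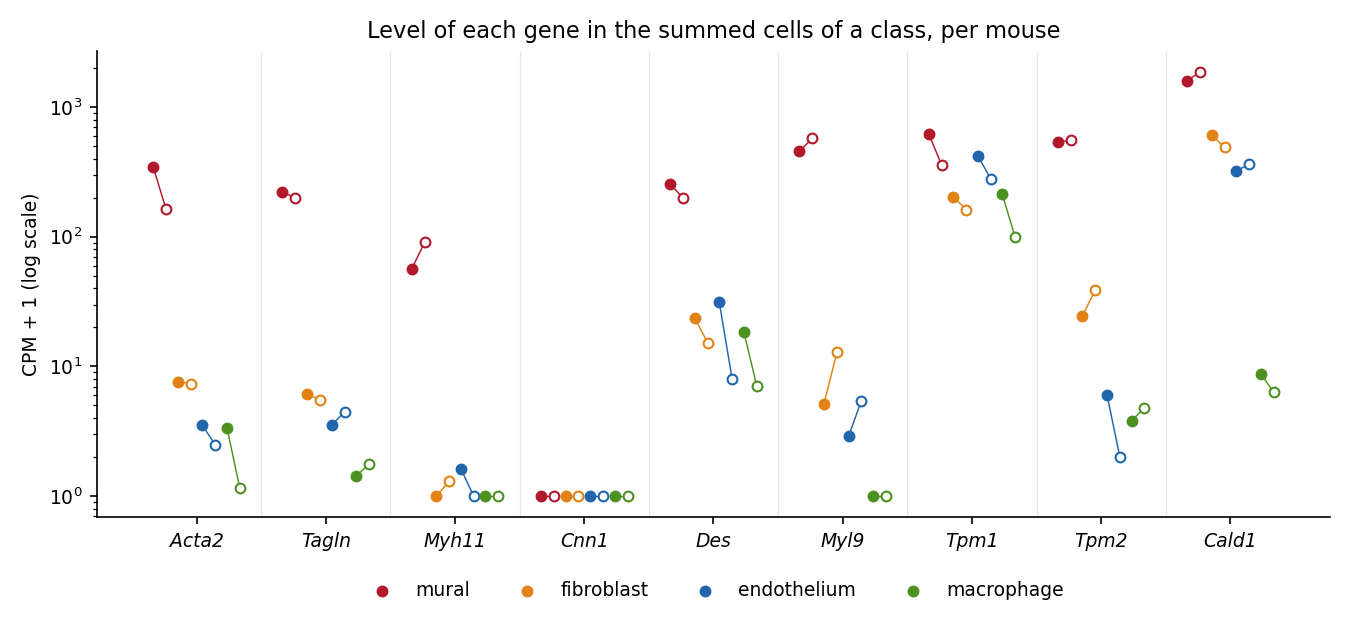
CPM plus 1 (log axis) of each of the 9 genes in the summed cells of each class; filled points are mouse 1, open points mouse 2, and a line joins the 2 mice. Acta2, Tagln, Myh11, Des, Myl9, Tpm2 and Cald1 have both mural points above every other class, Tpm1 does not, and Cnn1 is at 0 throughout.

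To ask how far mural cells stood above each other class, UMI sums of the 4 classes in both mice were compared by edgeR's quasi-likelihood test with mouse as a block. A call needed a log2 fold change of at least 1 and a p below 0.05 after Benjamini-Hochberg adjustment across the 11628 genes tested. Of the 9 genes, 7 passed the filter on low counts and Myh11 and Cnn1 did not. A gene found mainly in mural cells passes that filter through the mural sums, so the count says less than the values. Against fibroblasts 6 of the 7 were called higher in mural cells, where 10.7% of all genes tested were called in either direction, 4.08% higher in mural cells and 6.64% higher in fibroblasts. Their median log2 fold change was 3.77 beside −0.35 for all genes. Myl9 rose by 5.72 ± 0.37 (log2 fold change ± SE; adjusted p = 9.6e-12), Tagln by 5.01 ± 0.50, Acta2 by 4.89 ± 0.50, Tpm2 by 3.77 ± 0.31 and Des by 3.14 ± 0.42. Cald1 rose by 1.23 ± 0.17. The value for Tpm1, 0.99 ± 0.23 (edgeR adjusted p = 0.00312), passed on p and fell just short of the fold needed.

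Against endothelium 6 of the 7 were again called higher in mural cells, beside 11.4% of all genes called in either direction, 4.64% higher in mural cells and 6.73% higher in endothelium, with a median of 5.73 for the genes and −0.35 for all genes. The tropomyosins differed from each other. Tpm2 was higher by 7.25 ± 0.44 (6.38 without mouse 2 and 8.71 without mouse 1, whose endothelium held 8 Tpm2 UMIs against 2 in mouse 2), while Tpm1 differed by 0.11 ± 0.22 (edgeR adjusted p = 0.83). Myl9 was higher by 7.00 ± 0.45, Acta2 by 6.58 ± 0.63, Tagln by 5.73 ± 0.57, Des by 3.26 ± 0.43 and Cald1 by 1.95 ± 0.17. Against macrophages 6 of the 7 were called higher, beside 21.9% of all genes in either direction, 9.27% higher in mural cells and 12.6% higher in macrophages, with medians of 6.78 and −0.35, the first unchanged with Myl9 at its lower bound. Tagln was higher by 7.68 ± 0.60, Cald1 by 7.22 ± 0.21, Acta2 by 6.78 ± 0.56, Tpm2 by 6.60 ± 0.36 and Des by 3.46 ± 0.42, and Myl9 was at least 2636-fold higher over the floor of 3 UMIs. The value for Acta2 was 6.44 without mouse 2 and 9.21 without mouse 1. Tpm1 differed by 0.94 ± 0.23 (edgeR adjusted p = 0.00243), again short of the fold needed, but was called at 1.70 without TMM, at 1.68 with cells carrying cardiac myocyte RNA left out and at 1.01 with mural cells of the endothelial gate counted as mural.

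These folds depend on the scaling, which TMM factors set from all genes. Without TMM the median of all genes moved by 0.40 against fibroblasts, 0.37 against endothelium and 0.75 against macrophages. The share of all calls that were higher in mural cells then went from 38.0% to 60.3%, from 40.8% to 61.6% and from 42.4% to 73.2%, and with DESeq2 it was 55.6%, 55.2% and 56.2%. Each of the genes called higher in mural cells stayed higher under every scaling. Tpm1 was called against fibroblasts without TMM (1.39), with DESeq2 size factors in edgeR (1.05) and in DESeq2 itself (1.04). Cald1 against fibroblasts was lost when cells passing several gates were kept, at 0.59 (edgeR adjusted p = 0.117), and when mural cells that also passed the endothelial gate were counted as mural, at 0.68, short of the fold.

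Between the other 3 classes 3 to 5 of the 7 genes tested were called. Fibroblasts against endothelium had 3 of 7 called higher, where 30.8% of all genes were called in either direction 16.3% higher in fibroblasts and 14.5% higher in endothelium. These were Tpm2 at 3.47 ± 0.42, Acta2 at 1.69 ± 0.66 (edgeR adjusted p = 0.0391) and Myl9 at 1.28 ± 0.51 (0.0438). Only Tpm2 was still called in DESeq2, without the mouse block, with doubled gate thresholds or with cells of several gates kept. In the last case Acta2 and Myl9 turned to −0.40 and −0.18. Tpm1 was lower in fibroblasts by 0.87 ± 0.16 and Cald1 higher by 0.72 ± 0.15, both with a fold too small for a call, and Tagln at 0.72 ± 0.56 and Des at 0.12 ± 0.30 did not pass.

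Fibroblasts against macrophages had 5 of 7 called higher, where 37.8% of all genes were called in either direction, 20.0% higher in fibroblasts and 17.8% higher in macrophages. Cald1 was higher by 5.99 ± 0.19, Tpm2 by 2.83 ± 0.29, Tagln by 2.67 ± 0.55 and Acta2 by 1.89 ± 0.49, and Myl9 was at least 37.5-fold higher. In mouse 2 alone the value for Acta2 was 5.01, since its macrophages held 1 Acta2 UMI and those of mouse 1 held 22. Without the 5 fibroblasts that had 3 or more UMIs of Acta2, Tagln and Myh11, and held 24 of the 56 fibroblast Acta2 UMIs, the call was lost at 1.04 (edgeR adjusted p = 0.134). Mural cells of that kind were left out of the same fit, and the choice removes fibroblast Acta2 by construction. Endothelium against macrophages had 3 of 7 called higher, where 33.2% of all genes were called in either direction, 16.8% higher in endothelium and 16.5% higher in macrophages. Cald1 was higher by 5.27 ± 0.19 and Tagln by 1.95 ± 0.73 (edgeR adjusted p = 0.0287), Myl9 was at least 17.6-fold higher, and Acta2 differed by 0.20 ± 0.80.

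**Figure D2:**
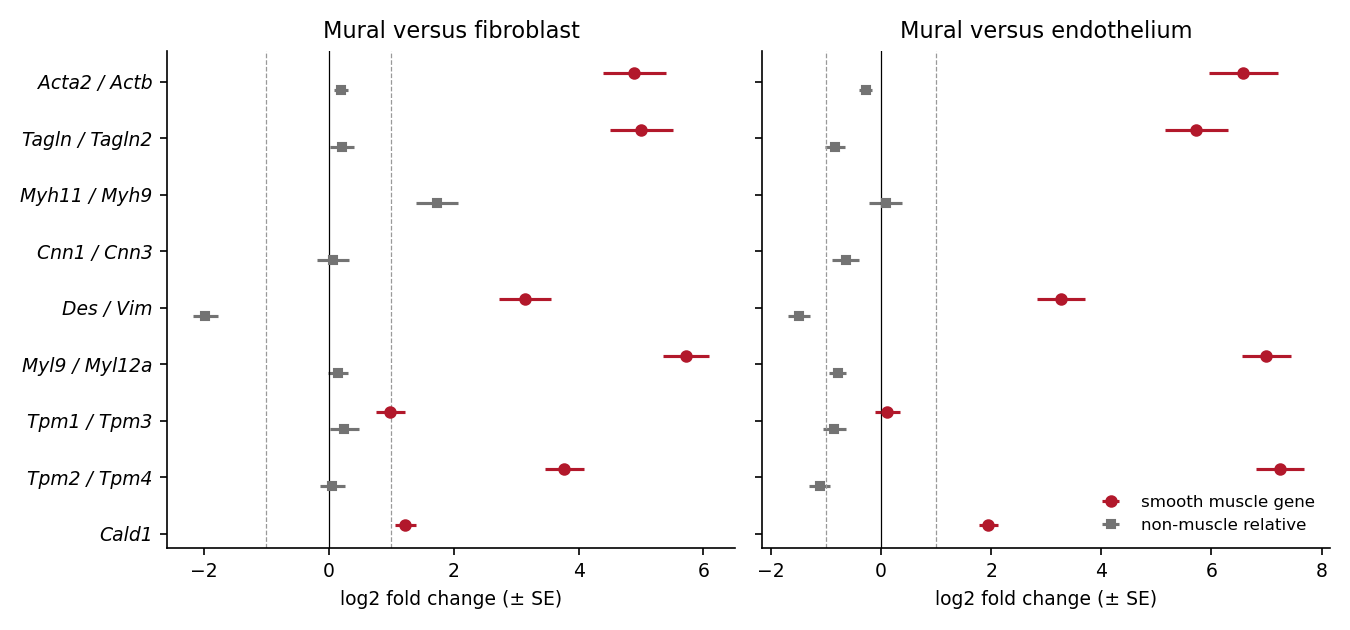
Log2 fold change with its standard error in mural cells against fibroblasts (left) and endothelium (right) for each gene tested (red) and its non-muscle relative (grey); dashed lines mark a log2 fold change of 1 either way. Acta2, Tagln, Des, Myl9 and Tpm2 lie past 3 in both panels and their relatives between −2 and 2; Myh11 and Cnn1 were not tested.

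Non-muscle relatives of the 9 genes, fixed as pairs, were measured in the same cells. These encode the cytoskeletal actin, myosin, tropomyosin and calponin forms that most cells use. Against fibroblasts 6 of the 8 relatives were not called. Beta-actin (Actb), the pair of Acta2, was at 5586 and 5641 CPM in mural cells and 3425 and 3917 in fibroblasts, a fitted difference of 0.19 ± 0.12. Non-muscle myosin Myh9 was higher in mural cells by 1.73 ± 0.34 and vimentin (Vim), the pair of desmin, was lower by 1.98 ± 0.20. Both held under each scaling tried. Desmin and vimentin thus went opposite ways: Vim was at 421 and 537 CPM in mural cells against 1284 and 1510 in fibroblasts.

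Against endothelium Vim was lower by 1.49 ± 0.20 and Tpm4 by 1.12 ± 0.20, the latter not called without TMM (−0.73), and the other 6 relatives were not called. Against macrophages Actb, Tagln2, Vim and Tpm3 were lower in mural cells and Cnn3 higher by 4.98 ± 0.36, but without TMM none of the 4 was called lower (Actb −0.93, Vim −0.94, Tpm3 −0.70, Tagln2 −0.56). Of the wider list of 13 non-muscle relatives, 1 was higher and 1 lower than in fibroblasts, and 4 were lower than in endothelium (2 without TMM). Against macrophages 1 of the 13 was higher and 6 were lower (2 and 1 without TMM). Of 10 cardiac or other muscle forms tested, none was called against fibroblasts and 5 were lower than in macrophages (none without TMM, 3 in DESeq2). Myl2 and Myl3, cardiac myosin light chains, were lower than in endothelium by 1.75 ± 0.44 and 1.47 ± 0.42, with mural Myl2 at 88.7 and 0 CPM. They were the 2 muscle forms called there, where only 1 was called without TMM and 1 in DESeq2. A sum of 7 cardiomyocyte genes stood at 610 and 107 CPM in mural cells and 895 and 322 in endothelium, and its part in those differences was not tested.

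The genes that switch contraction on and off were read from fixed lists, with the same test. Of 17 regulators tested, 6 were higher than in fibroblasts and none lower, and 6 were higher and 2 lower than in endothelium (8 higher, and 6 higher and 1 lower, without TMM). Against macrophages 7 were higher and 2 lower (8 and 0 without TMM). Here and in the next lists the shares of all genes called higher and lower in mural cells were 4.08% and 6.64% against fibroblasts, 4.64% and 6.73% against endothelium and 9.27% and 12.6% against macrophages. In these lists too a gene found mainly in mural cells passes the filter on low counts through the mural sums, so the counts say less than the values. Rgs4, which shortens G protein signals, was at 720 and 878 CPM in mural cells against 0.947 and 2.12 in fibroblasts (8.66 ± 0.39). The nitric oxide receptor subunits Gucy1a3 and Gucy1b3 were higher by 5.29 ± 0.35 and 5.01 ± 0.28 against fibroblasts and by 6.15 ± 0.40 and 6.67 ± 0.34 against endothelium. Mylk, the myosin light chain kinase that acts on Myl9, was at 388 and 322 CPM in mural cells against 2.27 and 2.42 in fibroblasts (6.83 ± 0.38), and was higher than in endothelium by 1.97 ± 0.27. The myosin phosphatase inhibitor Ppp1r14a was higher than in endothelium by 4.44 ± 0.51.

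Of 22 genes for dense plaques, filament anchors and adhesion, 7 were higher than in fibroblasts and 5 than in endothelium, with none lower, and 14 were higher and 1 lower than in macrophages. Mcam was at 99.8 and 143 CPM in mural cells against 0.568 and 0.303 in fibroblasts (7.43 ± 0.73). Leiomodin 1 (Lmod1), which builds actin filaments in smooth muscle, was at 99.8 and 89.5 CPM in mural cells against 0.947 and 0.606 in fibroblasts (6.41 ± 0.92) and 1 UMI in endothelium. The integrin subunit Itga7 was higher than in fibroblasts by 5.72 ± 0.70, and Itga1 by 3.34 ± 0.67. Vinculin (Vcl) was higher than in endothelium by 1.43 ± 0.36.

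The next list held genes of the SRF and myocardin program, mural transcription factors and the receptor Notch3. Of 14 tested, 3 were higher and 3 lower than in fibroblasts, and 5 were higher and 2 lower than in endothelium. Without TMM these were 4 higher and 2 lower, and 5 higher and 1 lower. Against macrophages 7 were higher and 1 lower. Myocardin itself had no UMI in mural cells, which allows up to 33.3 and 53.7 CPM, so lower levels were not detectable. Notch3, also among the pericyte markers summed above, was at 388 and 555 CPM in mural cells, higher than in fibroblasts by 5.80 ± 0.42. Mef2c and Foxs1 were higher by 2.51 ± 0.29 and 2.39 ± 0.32. Klf4, known to repress smooth muscle genes, was lower by 1.98 ± 0.30. Fhl1 (−1.74) and Gata6 (−2.34), below the level set for named genes and named after their values were seen, were lower too. Of 12 vasoactive receptors listed only 7 passed the filter on low counts. Of these 7, 4 were higher and none lower than in fibroblasts, 6 were higher and 1 lower than in endothelium (4 and 1 in DESeq2), and 6 were higher and none lower than in macrophages. Against fibroblasts the largest changes were in P2ry14, a receptor for UDP-sugars, at 410 and 233 CPM in mural cells against 0.568 and 1.82 (7.83 ± 0.53), and in the endothelin receptor Ednrb at 399 and 125 against 2.46 and 0.303 (7.03 ± 0.50). The natriuretic peptide receptor Npr1 was the one lower than in endothelium, with no UMI in mural cells against 67.5 and 62.4 CPM. The other endothelin receptor, Ednra, was at 233 and 53.7 CPM in mural cells against 0.947 and 1.51. The angiotensin receptor Agtr1a was at 66.5 and 53.7 CPM against 2.27 and 1.82, and neither Ednra nor Agtr1a had a UMI in endothelium. For both receptors the 53.7 CPM of mouse 2 is 3 UMIs, the floor used here for a count of 0.

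The number of these genes found in 1 cell was counted after each cell was thinned to 1000 UMIs, since deeper cells hold more genes by sampling alone. At that depth 18 of 55 mural cells of mouse 1 held 3 or more of the 9 genes (32.7%, exact Clopper-Pearson interval 20.7 to 46.7) and 11 of 29 of mouse 2 (37.9%, 20.7 to 57.7). In fibroblasts it was 9 of 1847 and 8 of 1263 cells (0.487% and 0.633%), in endothelium 5 of 878 and 6 of 1083 (0.569% and 0.554%). In macrophages it was 0 of 2988, which allows up to 0.100%, and 1 of 2313 (0.0432%). The mural intervals lay above those of every other class in both mice. With cells that passed several gates counted in each class, the mean mural share fell from 35.3% to 18.6%. Thinning left out 8 and 13 mural cells, 13 and 40 fibroblasts, 51 and 186 endothelial cells and 9 and 48 macrophages that were shallower.

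Without thinning, 30 and 19 mural cells (47.6% and 45.2%) held 3 or more, 96 and 51 fibroblasts (5.16% and 3.91%), 16 and 8 endothelial cells (1.72% and 0.630%) and 9 and 1 macrophages (0.300% and 0.0424%). The combinations differed by class. Of the 49 mural cells, 48 held Cald1, 39 Tpm2, 35 Tpm1, 31 Myl9, 20 Des, 12 Tagln, 11 Acta2 and 7 Myh11. Of the 147 fibroblasts, 145 held Cald1, 138 Tpm1, 83 Tpm2 and 55 Des, and 13 held Myl9. Of the 24 endothelial cells, 23 held Tpm1, 23 Cald1 and 17 Des. At least 3 UMIs of the 7 cardiomyocyte genes were found in 12 of these 24 and in 8 of the 10 macrophages. Among all cells of those classes the shares were 12.3% and 3.70% in endothelium and 18.4% and 7.84% in macrophages. As many were found in 4 of the 49 mural cells and 24 of the 147 fibroblasts, beside 7.94% and 0 of all mural cells and 8.17% and 2.46% of all fibroblasts.

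**Figure D3:**
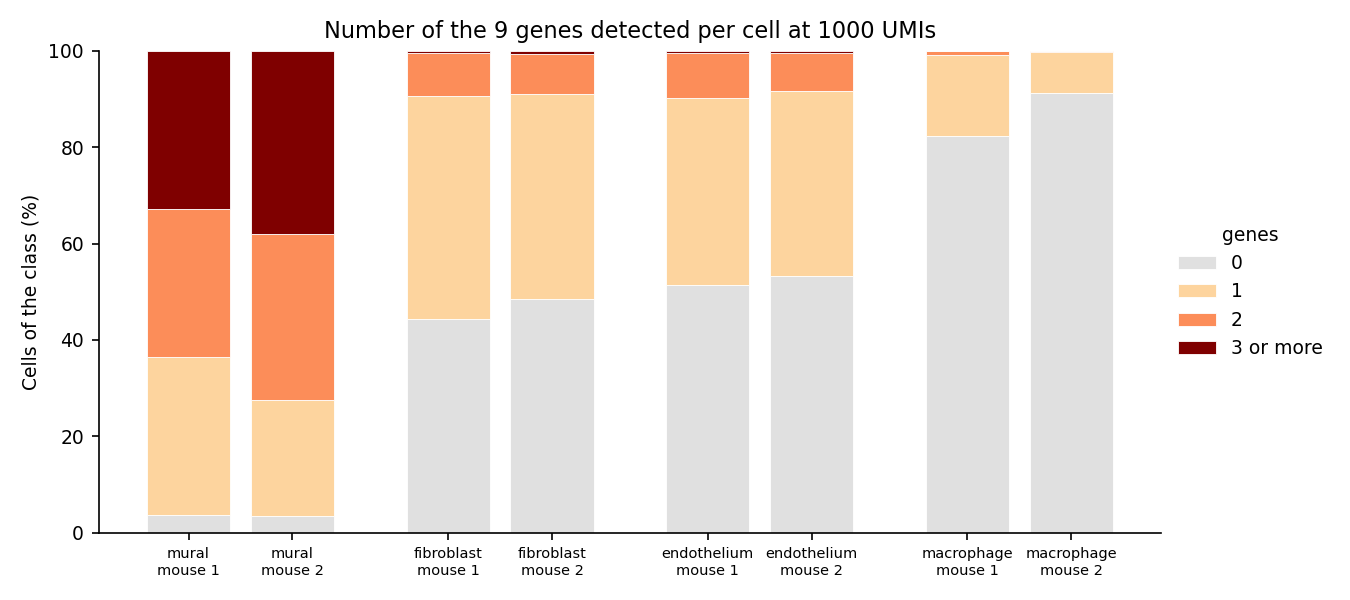
Share of cells (percent) of each class and mouse in which 0, 1, 2 or at least 3 of the 9 genes were found after thinning to 1000 UMIs. Mural cells with 3 or more make up 32.7% and 37.9%, and no other class reaches 1%.

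At 1000 UMIs Cald1 was found in 80.0% and 82.8% of mural cells, 44.8% and 39.2% of fibroblasts, 26.7% and 29.5% of endothelial cells and 0.703% and 0.346% of macrophages. Tpm2 was found in 34.5% and 34.5% of mural cells, 2.22% and 4.12% of fibroblasts and under 0.5% of the other classes. Acta2 was found in 10.9% and 6.90% of mural cells, so most mural cells of this gate gave no Acta2 molecule at that depth. In macrophages, which serve here as the level of stray RNA, Acta2 was found in 0.167% and 0 of cells and Des in 1.41% and 0.692%.

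Acta2, Tagln and Myh11 were concentrated in few mural cells. Of the 105 mural cells, 88 had no UMI of the 3 genes, 5 had 1, 4 had 2 and 8 had 3 or more, up to 18. Those 8 cells, chosen for these UMIs, held 36 of the 40 Acta2 UMIs, 24 of 31 for Tagln and 8 of 10 for Myh11, with 6.86% of all mural UMIs. The other genes, not used in that choice, were spread more widely: the 8 cells held 30.1% of the Myl9 UMIs, 26.6% for Tpm2, 23.7% for Tpm1, 14.5% for Cald1 and 11.8% for Des. With 6 and 2 cells per mouse these groups were not tested. In the 8 cells the 10 smooth muscle markers summed to 2894 CPM (counting interval 1938 to 4156) against 904 (751 to 1079) in the other 97. Of these markers Lmod1 was at 898 (411 to 1705) against 36.8 (11.9 to 85.8). Smtn, Pcp4l1 and Pln had no UMI in the 8 cells (upper limit 368 CPM each) against 58.8, 73.5 and 29.4. Actg2 had none in either set. Csrp1, a LIM protein of smooth muscle outside those 10, was at 1197 (619 to 2092) against 51.5 (20.7 to 106). The 7 pericyte markers summed to 7185 CPM (5622 to 9048) against 7807 (7344 to 8291), but went different ways: Abcc9 was at 200 (24.2 to 721) against 1051 (886 to 1238), Pdgfrb at 499 (162 to 1164) against 1441 (1246 to 1657), and Higd1b at 3293 (2267 to 4625) against 1845 (1624 to 2088). Fibroblast markers summed to 2096 CPM (1297 to 3203) against 985 (825 to 1167) and endothelial markers to 3293 (2267 to 4625) against 5748 (5353 to 6166). These sums leaned on single genes. Fabp4 gave 32 of the 33 endothelial marker UMIs in the 8 cells and 605 of 782 in the other 97. Gsn gave 16 of the 21 fibroblast marker UMIs in the 8 cells and 53 of 134 in the others. The part of these markers in the other differences was not tested. The 3 pericyte markers, the single smooth muscle markers, Csrp1, Fabp4 and Gsn were named after their values were seen, and all intervals cover counting error only.

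With all cells of this kind left out of every class, Acta2 in mural cells was no longer called against fibroblasts (2.52, edgeR adjusted p = 0.24), endothelium (3.33, 0.135) or macrophages (3.56, 0.0555). Tagln was still called at 3.89, 3.72 and 5.58, although this choice removes Acta2 and Tagln by construction. Myl9, Tpm2, Des and Cald1 were still called against all 3 classes, Myl9 at 5.25 against fibroblasts and 6.54 against endothelium. In the 97 remaining mural cells Myl9 was at 291 and 503 CPM, Tpm2 at 376 and 503, Cald1 at 1433 and 1751 and Des at 231 and 205, while Acta2 was at 12.1 and 55.9 on 1 and 3 UMIs.

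Among all 12295 cells kept, 19 (0.155%) had 3 or more UMIs of Acta2, Tagln and Myh11, 16 in mouse 1 and 3 in mouse 2. They were of more than 1 kind. Of these, 12 passed the mural gate, 8 of them alone and 4 with the endothelial gate, at a median of 1267 UMIs. They held 11 UMIs of Myh11 in 7 cells and 28 of Myl9 in 11 cells. Another 6 passed the Dcn gate of fibroblasts and not the mural gate, 1 of them with the endothelial gate, at a median of 5255 UMIs. They held 29 UMIs each of Acta2 and Tagln but none of Myh11 or Myl9 in 35211 UMIs, which allows up to 85.2 CPM, against 483 and 1230 CPM of the genes in the 12 cells. The pericyte markers summed to 256 CPM in those 6 cells and the fibroblast markers to 15109.

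The last cell passed no gate, with 3 UMIs of the mural gate genes where 4 were needed. At 1354 UMIs it held all 9 genes: 12 UMIs of Acta2, 8 of Tagln, 4 of Myh11, 1 of Cnn1, 1 of Des, 8 of Myl9, 10 of Tpm1, 8 of Tpm2 and 5 of Cald1. It carried the only Cnn1 UMI among the cells kept. It also held 5 UMIs of Csrp1, 3 of Mylk and 3 of Sncg, other genes of the lists, and 1 UMI of Dcn. The 10 smooth muscle markers and the 7 pericyte markers each summed to 7 UMIs in this cell. Among the latter were 3 UMIs of Higd1b and 2 of Notch3, and among the former Lmod1, Smtn, Kcnmb1 and Actg2 had none. The mural class as gated therefore does not hold every cell rich in these genes, and how many such cells were lost in dissociation or filtering was not measured.

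**Figure D4:**
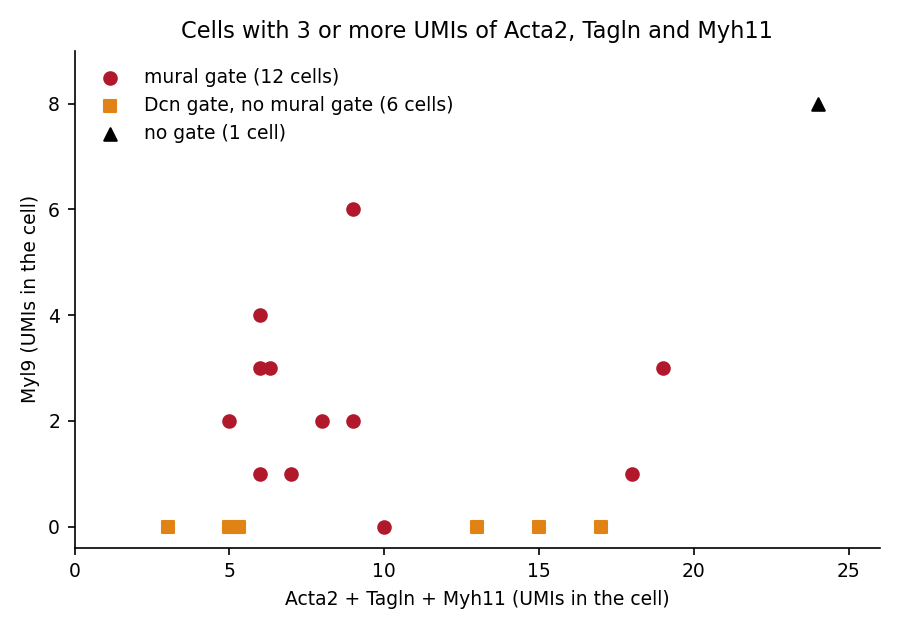
UMIs of Myl9 against summed UMIs of Acta2, Tagln and Myh11 in each of the 19 cells with 3 or more of the latter; equal points are shifted slightly to the right. Circles are cells of the mural gate, squares cells of the fibroblast gate, all 6 at 0 Myl9, and the triangle is the cell that passed no gate, with 24 and 8 UMIs.

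Within fibroblasts, cells with at least 2 UMIs of Pi16, a marker of adventitial fibroblasts (1024 and 546 cells), were compared with those passing no subset gate (802 and 744). None of the 6 genes tested was called by edgeR, where 2.01% of all genes were called in either direction (0.962% higher and 1.05% lower in Pi16 cells), and DESeq2 also called none. Tpm1 alone passed unadjusted p below 0.05, at 0.28 ± 0.11 with an adjusted p of 0.149. When the sparse matrix fibroblast sums were kept out of the fit its adjusted p was 0.0473 (edgeR), with the same fold. Cald1 differed by 0.06 ± 0.10, Acta2 by 0.64 ± 0.48 and Myl9 by −0.64 ± 0.41, the last pair with errors wide enough to hide a change of the size needed for a call.

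Matrix fibroblasts, with at least 4 UMIs of Cilp, Postn and Thbs4, were only 4 and 1 cells once cells also passing the Pi16 gate were left out, and were not tested. The single cell of mouse 2 held 12 Acta2 and 5 Tagln UMIs and 24 of Cald1, and the 4 cells of mouse 1 held none of the first pair. When the 30 and 12 cells of both gates were added, Acta2 and Tagln were called against other fibroblasts (4.14 ± 0.72 and 4.24 ± 0.87), the pair called of 7 tested, where 2.74% of all genes were called. Against Pi16 fibroblasts the same 2 were called (3.50 ± 0.67 and 3.27 ± 0.78), beside 1.07% of all genes. Of the 14 Acta2 UMIs in this enlarged set, 12 came from that 1 cell, and Acta2 was found in 2 of 34 and 1 of 13 cells.

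Arterial endothelial cells, with at least 2 UMIs of Gja5, Gja4 and Sema3g, numbered 16 and 20 and had no UMI of Acta2, Tagln, Myh11, Cnn1, Des or Myl9. At 24998 and 35090 UMIs that allows up to 120 and 85.5 CPM, well above the level of these genes in the rest of the endothelium, so a difference was not detectable at this depth. Tpm1 (320 and 171 CPM) and Cald1 (280 and 399 CPM) were the 2 genes tested against other endothelium (422 and 281, 321 and 361), and edgeR called neither, where 0.964% of all genes were called (0.299% higher and 0.665% lower in arterial cells). Tpm1 differed by −0.92 ± 0.37, at an unadjusted p of 0.0136 and an adjusted p of 0.374, with 1 residual degree of freedom, and DESeq2 called neither. With cells that passed several class gates kept in, Acta2 (3.60 ± 0.77) and Tagln (3.19 ± 0.87) were called higher in arterial cells, where 1.72% of all genes were called. That set of 56 cells includes 8 that also passed the mural gate, and those 8 held all 13 of its Acta2 UMIs and all 9 of its Tagln UMIs. Apart from cells of several gates, no arterial cell held 3 or more of the 9 genes. Unthinned, the 16 and 20 cells allow up to 18.8% and 15.0%, above the 1.75% and 0.641% of other endothelium, so a difference was not detectable.

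Cardiac myocyte RNA moved with Tpm1 and Des, genes that myocytes also express. Cells were split at 3 UMIs of Myh6, Actc1, Tnnt2, Tnni3, Myl2, Myl3 and Mb. In macrophages below that limit Tpm1 was at 100 and 69.0 CPM, and in the 551 and 185 above it at 630 and 404. In endothelium Tpm1 was at 292 and 255 CPM against 1168 and 814, and in fibroblasts at 158 and 153 against 648 and 454. Des followed, at 7.53 and 3.32 CPM against 54.9 and 35.5 in macrophages and at 13.3 and 5.69 against 130 and 35.4 in endothelium. Cald1 did not: it was at 320 and 362 CPM against 320 and 342 in endothelium and 609 and 489 against 561 and 432 in fibroblasts. In fibroblasts, endothelium and macrophages both mice had Tpm1 higher in the cells above the limit, and among mural cells only 5 of mouse 1 lay above it.

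**Figure D5:**
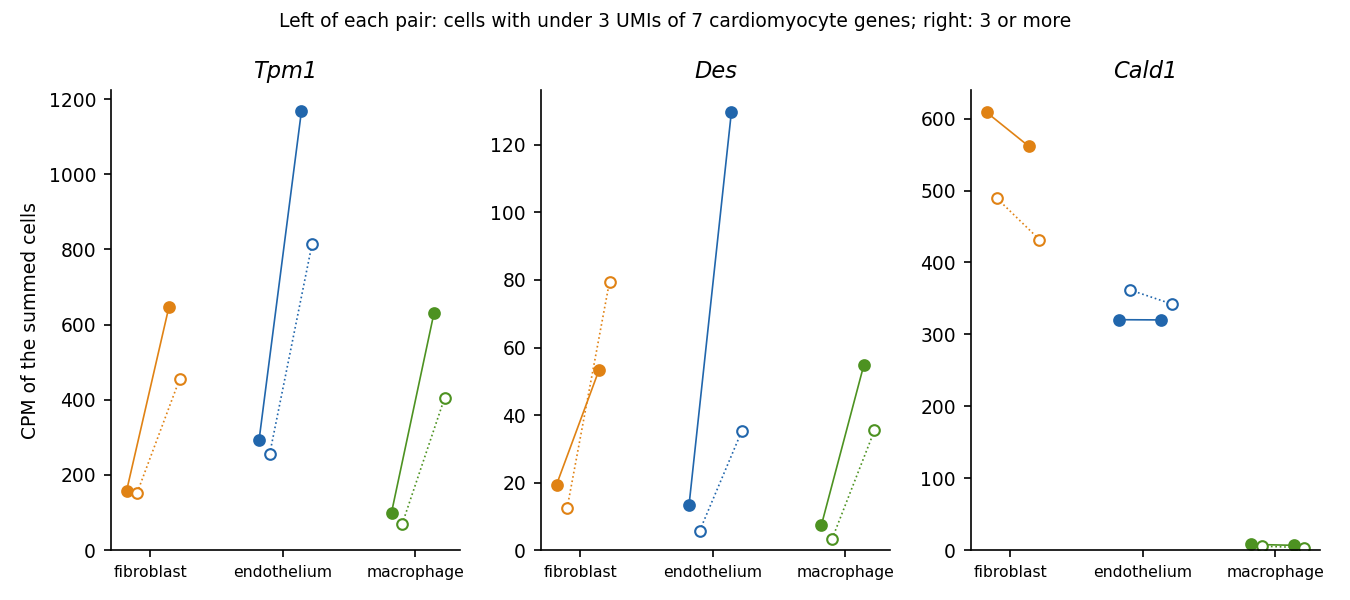
CPM of Tpm1, Des and Cald1 in fibroblasts, endothelial cells and macrophages with under 3 (left of each pair) and at least 3 (right) UMIs of 7 cardiomyocyte genes; filled points and solid lines are mouse 1, open points and dotted lines mouse 2. Tpm1 and Des are higher on the right in every class and mouse, and Cald1 is not.

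With cells above the limit left out of all classes, Tpm1 was called higher in mural cells than in fibroblasts at 1.15 and higher in endothelium than in macrophages at 1.29 (main fit 0.83 ± 0.15, below the fold needed). The part of myocyte RNA in the levels of single cells was not tested.

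The 2 mice differed within classes beyond counting error in several of these values. Of 26 pairs of class and gene with at least 10 UMIs, the exact binomial interval of the ratio of mouse 1 to mouse 2 lay off 1 in 13, with mouse 1 higher in 10. Tpm1 was higher in mouse 1 in all 4 classes, by 1.73 (1.02 to 3.05) in mural cells, 1.26 in fibroblasts, 1.51 in endothelium and 2.16 (1.97 to 2.36) in macrophages. Des was higher in mouse 1 in endothelium by 4.36 (2.37 to 8.57), in macrophages by 2.87 and in fibroblasts by 1.58. All 4 classes also carried more myocyte RNA in mouse 1, at 610 against 107 CPM in mural cells, 393 against 168 in fibroblasts, 895 against 322 in endothelium and 734 against 294 in macrophages. In cells with under 3 UMIs of the 7 cardiomyocyte genes, Des was at 13.3 against 5.69 CPM in endothelium, 19.4 against 12.4 in fibroblasts and 7.53 against 3.32 in macrophages. The part of myocyte RNA in these differences was not tested. Myl9 and Tpm2 in fibroblasts were lower in mouse 1, with ratios of 0.352 (0.199 to 0.609) and 0.625 (0.484 to 0.807). With 1 library on each side this is no test of the mice.

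Genes whose pattern was most like that of Acta2, Des, Cald1 and Tpm1 were ranked by Pearson correlation of log2(CPM + 10) over 14 sums, 7 groups in each of the 2 mice, among 4718 genes. The sums share 2 libraries and those of matrix fibroblasts hold 4 and 1 cells, so the values are descriptive. For Acta2 the nearest were Tagln (0.993), Adora2b, Cobll1, Tceb1 and Nono. Without the matrix sums they were Il34, Agtr1a, Map7d2, Rbpms2 and Tagln (0.990), so only Tagln was in both lists of 5. Nearest to Des was Tnfrsf21 (0.944), to Cald1 Cuedc1 (0.949) and to Tpm1 Trib2 (0.884). Without the matrix sums the nearest were Stk39 (0.954), Ebf1 (0.981) and Ube2d3 (0.913), with Tnfrsf21 and Cuedc1 no longer among the 5 nearest and Trib2 the fourth. Sparc was among the 5 nearest to Cald1, and Rbpms2 among those to Des, in both rankings.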

How the data were processed

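Raw counts (UMIs per gene symbol and barcode, no normalization) were deposited by the authors for 2 libraries. Cell Ranger 2.2.0, FastQC and build mm10 are named in the submitters' processing notes; how barcodes were chosen, and whether strand was used, is not given in the sources used here. Tables held 7732 and 6367 barcodes with 21355383 and 15174548 UMIs.

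Kept cells had at least 500 UMIs, 300 genes and at most 10% mitochondrial UMIs (719 and 432 removed), and Scrublet (scanpy 1.11.5, per library) removed 405 and 248 doublets. Classes were gated as stated; CPM is counts per 1e6 UMIs of the summed cells. UMI sums were tested in edgeR 4.0.16 (R 4.3.3): TMM, filterByExpr with a minimum total of 15, quasi-likelihood F test, with the library as a replicate block because every class was drawn from the same libraries. The 17 gate genes were left out. The 4-class fit has 3 residual degrees of freedom, the fibroblast fit 2 and the endothelial fit 1. The pipeline was tested on simulated data. Groups under 10 cells in a mouse were not tested. Intervals are exact at 95% and, with the floor of 3 UMIs, cover counting error only. Alternatives included DESeq2 1.42.0, other scaling, no filter, no block, other gates and thinning. Keeping both-subset cells as matrix fibroblasts, dropping the matrix sums, counting mural cells of the endothelial gate as mural and dropping cells rich in Acta2, Tagln and Myh11 were added after the data were seen. The genes, lists and tests were chosen with earlier results of these data known. Genes named from a list were the 4 with the largest called change whose CPM was 50 or more, in each mouse, in the class where they were higher.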

Additional observations from a re-analysis of the deposited data

Results flagged for a closer look

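Cells outside the 4 classes also held these genes, above what a count of 0 allows. The 1153 cells that passed no gate held 28 UMIs of Acta2, 11 of Tagln, 4 of Myh11, 42 of Des, 12 of Myl9, 551 of Tpm1, 16 of Tpm2 and 275 of Cald1. All 4 of these Myh11 UMIs, and 12 of the Acta2 and 8 of the Tagln and Myl9 UMIs, were in the 1 cell that held all 9 genes. The 318 cells that passed several gates held 35 UMIs of Acta2, 26 of Tagln, 4 of Myh11, 47 of Des, 32 of Myl9, 402 of Tpm1, 35 of Tpm2 and 280 of Cald1.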

How the results depend on the processing

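With 2 libraries, the spread behind each call is mostly borrowed from all genes, and depth limits Myh11 and Cnn1 in mural cells and all but Tpm1 and Cald1 in arterial endothelium. The count of 6 genes called higher in mural cells ranged from 5 to 7 against fibroblasts and against endothelium and from 5 to 8 against macrophages. Fibroblasts against endothelium had 3 called genes, but 1 in DESeq2, 1 with no replicate block, 1 with cells of several gates kept and 1 with doubled gates; keeping cells of several gates gave 2 for arterial against other endothelium, and with that gate doubled the arterial set was too small to run. Without the block, no count of called genes in another comparison left its range of 1.5 times.

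The share of cells with 3 or more of the genes (mean of the mice) was 35.3% in mural cells at 1000 UMIs, 60.7% at 2000 (on only 7 and 2 cells, 56 and 40 being too shallow), 46.4% unthinned and 18.6% with cells of several gates, and 32.7% to 37.9% leaving out either mouse. In fibroblasts 0.560% became 2.45% at 2000 and 4.54% unthinned (0.487% to 0.633% leaving out either mouse). In endothelium 0.562% became 1.40%, 1.18%, 0.727% with several gates, 0.521% with doubled gates and 0.388% without cells with myocyte RNA (0.554% to 0.569%). In macrophages 0.0216% became 0.0688% and 0.171% (0 to 0.0432%).

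Signs turned for Tpm1 in mural cells against endothelium, to −0.21 without the cells rich in Acta2, Tagln and Myh11 and to −0.061 without mouse 1 (0.23 without mouse 2, 0.11 with both), and for Acta2 (−0.40) and Myl9 (−0.18) in fibroblasts against endothelium with cells of several gates kept. The cause was not tested.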

Other observations

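Cells that passed both the mural and the endothelial gate, 38 and 36 in number, lay between those classes in most of these genes. Tpm2 was at 93.1 and 64.6 CPM in them, Myl9 at 158 and 90.4 and Cald1 at 708 and 439, below every mural value and above every endothelial one. Acta2 was at 251 CPM in mouse 1 and at 12.9 in mouse 2, the latter on 1 UMI, and Tpm1 at 521 and 400. Their median depth was 2154 and 2028 UMIs, against 1295 and 1294 in mural cells, and the part of depth in passing both gates was not tested.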
